A study of Mus musculus with 8 samples.

Results

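The genes described here are 10 genes of the piRNA pathway, 5 of which code for Tudor-domain proteins: Asz1, Tdrkh, Tdrd1, Tdrd5, Tdrd9, Tdrd12, Piwil2, Mael, Mov10l1 and Pld6. They were chosen by name, with earlier results of these data known. Every array probe whose RefSeq accession belongs to one of them was taken. This gave 11 probes for the 10 genes, out of 19751 genes named on the array. Only Tdrd5 had 2 probes. Gene expression was measured in VV3 ESCs, a male mouse embryonic stem cell line with a Vasa::Venus transgene, whose fluorescence reports on Vasa (Ddx4), and which is grown on STO feeder fibroblasts. In 4 samples, L3mbtl2 was knocked down with siRNA (L3mbtl2-KD ESCs), and 4 samples received AllStars, a non-silencing siRNA (control ESCs). RNA of each sample was hybridised to a one-colour Agilent mouse array of its own. The L3mbtl2-KD cells were sorted for Vasa reporter fluorescence before RNA isolation. Whether control cells for the arrays were sorted is not given in the sources used here, so the siRNA and the sort cannot be told apart in any difference below.

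piRNAs are short RNAs of the germ line that guide PIWI proteins to transposon transcripts. Long precursors are cut and trimmed at the outer membrane of mitochondria and in the granules beside them, called nuage, and the PIWI proteins loaded there carry methylated arginines that Tudor domains bind. Male mice that lack a gene of this pathway typically lose transposon silencing and are sterile. L3MBTL2 is a subunit of PCGF6-PRC1, a Polycomb complex that also holds MAX and MGA and represses germ cell-related genes in ESCs.

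Values are log2 intensities after subtraction of the 75th percentile of the array, so that 0 stands for a spot at that percentile. A brighter probe is not read as more RNA than a dimmer probe of another gene. The 75th percentile was 791 to 1038 intensity units in L3mbtl2-KD ESCs (median 881) and 854 to 1024 in control ESCs (median 912). The number of arrays limits the precision. Probes entered the test if all 4 arrays of either group were well above background. A gene counted as called if any probe of it passed both a 2-fold change and an adjusted p of 0.05 in limma. The siRNA target L3mbtl2 was at -1.45, -1.26, -1.58 and -1.73 in L3mbtl2-KD replicates 1 to 4 and at 0.27, -0.18, -0.21 and -0.31 in control replicates 1 to 4. All L3mbtl2-KD arrays lay below all control arrays for this probe, as the labels give.

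Of the 10 members, 9 had a tested probe, and Tdrd1 did not. Piwil2, Mael, Asz1, Tdrkh and Tdrd12 were up-regulated in L3mbtl2-KD ESCs, which is 5 members, where 2.49% of the 13653 genes tested were called up. With limma 0 of the 9 were called down, where 3.21% of all genes were, and the count was also 0 without adjustment and 0 with the one-way test of the legends. On the brightest probe of each gene, the 4 L3mbtl2-KD arrays lay above the 4 control arrays for 6 of the 9 (12.6% of all genes), and below them for 0 of the 9 (13.8% of all genes). The sixth was Pld6, which was not called. As the members were chosen with earlier results known, these shares do not test whether they stand apart from other genes. The fitted log2 fold changes were 1.81 to 3.21 for the 4 called members above background in both groups and 0.0031 to 0.28 for the probes of those tested and not called, while Asz1 has only a lower limit, given below. The median over the 9 genes was 1.81, against -0.01 over all genes tested. It was 1.05 over the 8 genes other than Asz1, a choice made after the values had been seen, and 0.83 over the 9 after normexp correction of the background. Asz1 passed the filter only through its L3mbtl2-KD arrays, so that it had to differ once it was tested. In bulk RNA, fewer cells of a type and less RNA per cell cannot be told apart, and this holds for every gene below.

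**Figure D1:**
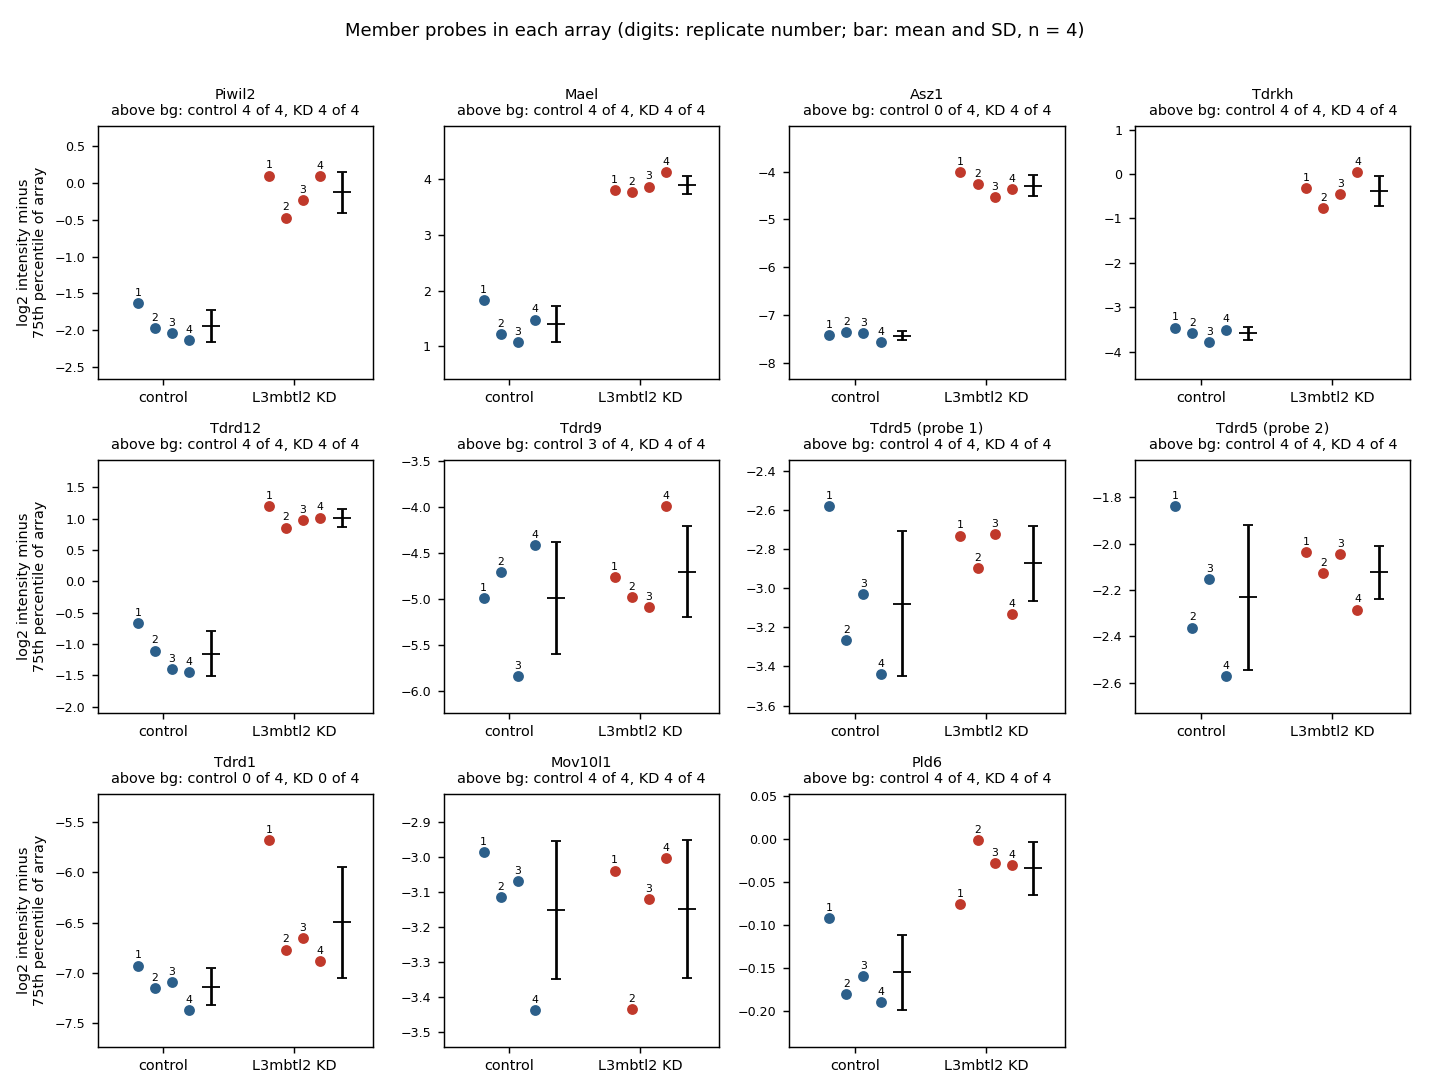
Normalized log2 intensity of each member probe (vertical axis) in each control array (blue) and L3mbtl2-KD array (red), with replicate numbers at the points and the mean and SD of each group as black bars. The red points lie clear of the blue ones for Piwil2, Mael, Asz1, Tdrkh and Tdrd12, whereas for Tdrd1 no array was well above background in either group.

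The promoters of members that moved together and of members that did not are shown first, as RefSeq windows of assembly GRCm38.p6 from 250 bases before to 50 bases after the annotated transcription start. Windows were found for 9 of the 10 members (13 windows, as Tdrd1, Tdrd12 and Pld6 have several), and none for Piwil2. Both strands were searched for CACGTG, the E-box bound by MAX, TCCCGC, a core of E2F sites, and TCACACC, the T-box core bound by MGA. The motifs found are in capitals. No match overlapped another. The first 4 windows belong to the called members Tdrkh at chr3:94412994-94413293 (plus strand), Asz1 at chr6:18109012-18109311 (minus strand), Tdrd12 at chr7:35537666-35537965 (minus strand) and Mael at chr1:166238695-166238994 (minus strand). The last 2 belong to Mov10l1 at chr15:88982744-88983043 (plus strand) and Tdrd9 at chr12:111971309-111971608 (plus strand), which were not called. Each runs 5′ to 3′ on the strand of its gene.
Tdrkh: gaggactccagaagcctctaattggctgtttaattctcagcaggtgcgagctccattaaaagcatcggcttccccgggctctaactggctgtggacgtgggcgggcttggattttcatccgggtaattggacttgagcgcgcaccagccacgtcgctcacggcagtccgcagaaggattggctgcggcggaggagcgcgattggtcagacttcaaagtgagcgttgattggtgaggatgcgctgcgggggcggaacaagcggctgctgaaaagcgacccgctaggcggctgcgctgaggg
Asz1: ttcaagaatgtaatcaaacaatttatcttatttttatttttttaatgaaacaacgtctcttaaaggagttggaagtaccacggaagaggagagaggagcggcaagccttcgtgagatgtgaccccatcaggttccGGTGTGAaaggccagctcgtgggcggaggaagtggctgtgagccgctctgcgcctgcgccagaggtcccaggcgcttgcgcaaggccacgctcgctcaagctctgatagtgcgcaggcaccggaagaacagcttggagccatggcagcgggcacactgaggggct
Tdrd12: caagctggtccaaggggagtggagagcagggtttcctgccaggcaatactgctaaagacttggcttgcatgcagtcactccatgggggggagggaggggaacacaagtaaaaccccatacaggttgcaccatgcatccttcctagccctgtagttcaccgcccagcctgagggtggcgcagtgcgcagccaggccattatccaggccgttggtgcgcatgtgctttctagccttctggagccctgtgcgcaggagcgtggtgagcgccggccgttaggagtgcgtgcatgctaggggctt
Mael: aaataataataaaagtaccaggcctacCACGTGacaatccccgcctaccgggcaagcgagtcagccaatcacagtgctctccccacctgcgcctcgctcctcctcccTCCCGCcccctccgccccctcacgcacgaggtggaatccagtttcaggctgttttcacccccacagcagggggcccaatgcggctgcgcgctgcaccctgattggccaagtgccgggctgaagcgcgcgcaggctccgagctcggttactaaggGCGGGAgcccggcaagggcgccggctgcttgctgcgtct
Mov10l1: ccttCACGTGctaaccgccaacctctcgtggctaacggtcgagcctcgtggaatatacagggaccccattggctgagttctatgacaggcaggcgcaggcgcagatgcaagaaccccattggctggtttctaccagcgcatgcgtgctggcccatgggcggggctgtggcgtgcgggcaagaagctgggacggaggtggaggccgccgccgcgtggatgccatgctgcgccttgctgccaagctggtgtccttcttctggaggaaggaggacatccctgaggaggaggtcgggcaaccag
Tdrd9: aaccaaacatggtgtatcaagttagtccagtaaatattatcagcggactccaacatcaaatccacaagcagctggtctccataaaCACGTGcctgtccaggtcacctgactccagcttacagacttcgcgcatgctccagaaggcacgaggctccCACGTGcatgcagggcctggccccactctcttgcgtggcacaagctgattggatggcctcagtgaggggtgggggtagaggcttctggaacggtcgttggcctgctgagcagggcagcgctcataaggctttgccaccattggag

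CACGTG was found in 6 of the 13 windows, which belong to 5 of the 9 members with a window, and in 7.15% of all 32851 windows of the table. By call, it was in 1 of the 4 called members with a window (Mael, with its first base at -223 from the start) and in 3 of the 4 tested members that were not called. These were Tdrd9 (at -165 and -95), Mov10l1 (at -246) and Pld6 (at -33 in one of its 2 windows). Tdrd1, which was not tested, also held one. TCCCGC was in 2 of the 13 windows (20.0% of all windows), once in Tdrd5 and at -143 and 11 in Mael, the latter match being on the opposite strand. TCACACC was also in 2 of the 13 windows (3.98% of all windows), at -115 on the opposite strand in Asz1 and at -142 in Tdrd5. The windows of Tdrkh and Tdrd12 held none of the 3 motifs. A match describes these letters only and was not tested against any change in expression.

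The members also differed in CpG content. The ratio of observed to expected CpG was 0.956 in the window of Tdrkh, 0.783 in Asz1 and 0.780 in Mael, with a median of 0.384 over all windows. In the 2 overlapping windows of Tdrd12 it was 0.408 and 0.341. Among the members that were tested and not called, Tdrd5 had the highest ratio (1.11), and Mov10l1 (0.674) lay above Tdrd9 (0.430). The windows of Pld6 were at 0.701 and 0.633.

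**Figure D2:**
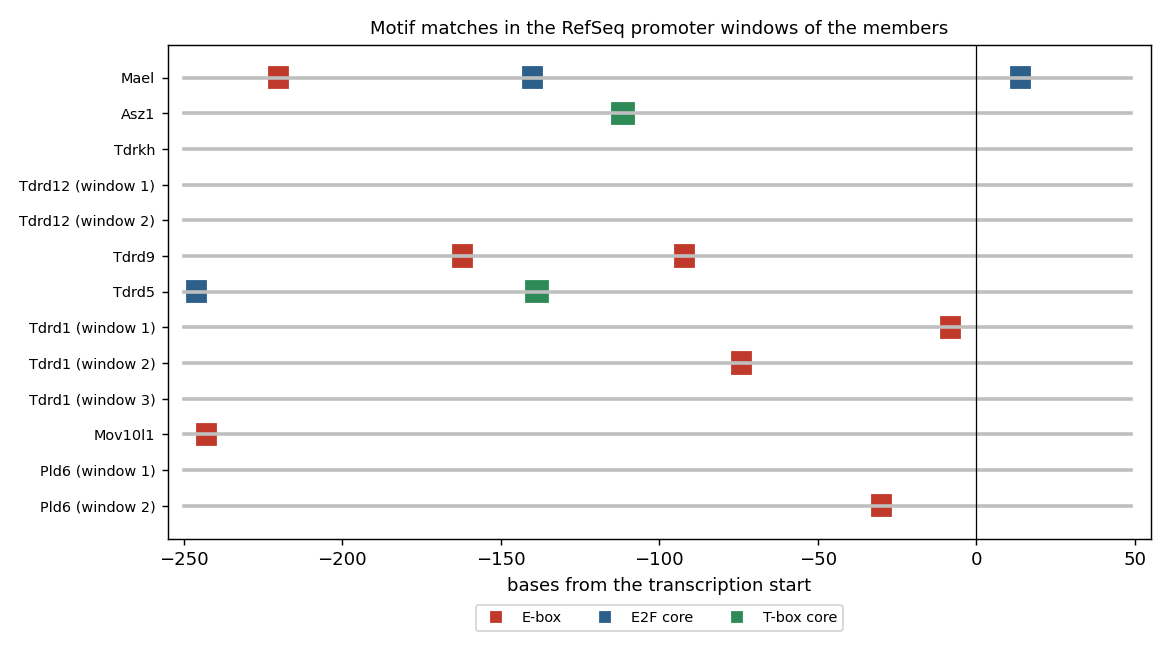
Matches to CACGTG (E-box, red), TCCCGC (E2F core, blue) and TCACACC (T-box core, green) in the 13 promoter windows of 9 members, drawn to scale against the distance in bases from the transcription start. The windows of Tdrkh and Tdrd12 hold no match, and 5 members hold an E-box.

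Piwil2 codes for MILI, the PIWI protein that binds piRNAs and slices transposon transcripts in fetal germ cells and spermatogonia. Its normalized log2 intensity was 0.10, -0.47, -0.23 and 0.09 in L3mbtl2-KD replicates 1 to 4 and -1.63, -1.97, -2.04 and -2.13 in control replicates 1 to 4. The groups did not overlap, and the lowest L3mbtl2-KD array (replicate 2) was 1.16 above the highest control array (replicate 1). The means were -0.13 ± 0.27 and -1.94 ± 0.22 (SD, n = 4 each), a log2 fold change of 1.81 (standard error 0.161, limma adjusted p = 0.000422), or 3.51-fold.

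Mael codes for maelstrom, a nuage protein with an HMG box that is needed for transposon silencing. Its values were 3.80, 3.75, 3.86 and 4.12 in L3mbtl2-KD replicates 1 to 4, against 1.82, 1.23, 1.08 and 1.48 in control replicates 1 to 4. Every L3mbtl2-KD array was above every control array, with a gap of 1.93 between the groups, and in this gene control replicate 1 was again the highest control. The group means were 3.88 ± 0.16 and 1.40 ± 0.33 (SD, n = 4 each). This is a log2 fold change of 2.48 (standard error 0.167, limma adjusted p = 0.000127), or 5.59-fold. The probe was well above background on all 8 arrays.

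Of the members that sit at the mitochondrial surface, Asz1 and Tdrkh rose. ASZ1, also known as GASZ, is a scaffold protein of the cement between mitochondria. Its probe was well above background on all 4 L3mbtl2-KD arrays and on 0 of the 4 control arrays. In L3mbtl2-KD replicates 1 to 4 it was at -4.01, -4.27, -4.54 and -4.37, while its signal on the control arrays was -7.42, -7.35, -7.38 and -7.57. The intensities before scaling were 51.5, 41.0, 44.6 and 45.0 units on the L3mbtl2-KD arrays and 5.08, 5.23, 6.16 and 5.01 on the control arrays. Asz1 thus had a measured level in one group and only an upper limit in the other. The means were -4.30 ± 0.22 and -7.43 ± 0.10 (SD, n = 4 each), and the gene was at least 2.51-fold higher in L3mbtl2-KD ESCs. This bound sets the L3mbtl2-KD mean against the lowest signal that was well above background on each control array. After normexp correction of the background with its offset of 50, the fold was 1.78 (log2 fold change 0.83, limma adjusted p = 0.000844), and Asz1 was not called.

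TDRKH carries a Tudor domain and KH domains, and it holds PIWI proteins at mitochondria while the ends of piRNAs are trimmed. Its probe was at -0.31, -0.77, -0.46 and 0.04 in L3mbtl2-KD replicates 1 to 4 and at -3.46, -3.59, -3.79 and -3.51 in control replicates 1 to 4. The L3mbtl2-KD arrays were all higher, by at least 2.69, and control replicate 1 and L3mbtl2-KD replicate 2 were the arrays nearest to the other group. The log2 fold change of 3.21 (standard error 0.167, limma adjusted p = 3.78e-05) corresponds to 9.27-fold, and was 2.50 after normexp correction of the background (limma adjusted p = 1.74e-05). It was measured above background on all 8 arrays.

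Pld6, or MitoPLD, the mitochondrial nuclease that cuts piRNA precursors, was at -0.08, -0.0013, -0.03 and -0.03 in L3mbtl2-KD replicates 1 to 4. In control replicates 1 to 4 it was at -0.09, -0.18, -0.16 and -0.19. The L3mbtl2-KD arrays lay above the control arrays, but by only 0.02 (p = 0.0286 in a two-sided exact permutation test, which cannot give a smaller p with 4 samples a group). The log2 fold change was 0.12 (95% interval -0.04 to 0.28, limma adjusted p = 0.262), or 1.09-fold, and it did not pass limma across all genes, whereas the one-way test gave an adjusted p of 0.0355.

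The Tudor-domain members of the granules behaved differently from each other. TDRD12 joins Tudor domains with a helicase-like region and takes part in the loading of piRNAs in fetal germ cells. In L3mbtl2-KD replicates 1 to 4 Tdrd12 was at 1.20, 0.86, 0.97 and 1.02, and in control replicates 1 to 4 at -0.67, -1.11, -1.40 and -1.45. The groups were apart by 1.53, and control replicate 1 stood highest among the controls. Tdrd12 thus rose by 2.17 on the log2 scale (standard error 0.175, limma adjusted p = 0.000278), or 4.49-fold.

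Tdrd9, which codes for a Tudor-domain helicase that works with the nuclear PIWI protein, was not called. The probe was dim, above background on 4 L3mbtl2-KD arrays and 3 control arrays. Its values were -4.77, -4.98, -5.08 and -3.99 in L3mbtl2-KD replicates 1 to 4 and -4.99, -4.71, -5.84 and -4.42 in control replicates 1 to 4. The groups overlapped widely, as control replicate 4 was above 3 of the 4 L3mbtl2-KD arrays. The log2 fold change of 0.28 had a 95% interval from -0.48 to 1.05 (limma adjusted p = 0.602), so that a rise of 2-fold lies within it.

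Both probes of Tdrd5, whose protein has Tudor and LOTUS domains, were above background on all 8 arrays. Probe A_55_P1965160 was at -2.73, -2.90, -2.73 and -3.13 in L3mbtl2-KD replicates 1 to 4 and at -2.58, -3.26, -3.03 and -3.44 in control replicates 1 to 4. Probe A_55_P2142575 was at -2.04, -2.13, -2.05 and -2.28 in L3mbtl2-KD replicates 1 to 4 and at -1.84, -2.36, -2.15 and -2.57 in control replicates 1 to 4. In both probes control replicate 1 was the highest and control replicate 4 the lowest of the 8 arrays, and the L3mbtl2-KD arrays lay between them. The log2 fold changes were 0.21 and 0.11 (limma adjusted p = 0.487 and 0.673), and the intervals of both (-0.22 to 0.63 and -0.24 to 0.46) leave out a change of 2-fold. Tdrd1, a partner of MILI with several Tudor domains, was not well above background on any of the 8 arrays. No fold change is given for it.

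Mov10l1 codes for the RNA helicase that feeds precursor transcripts into piRNA processing. Its values were -3.04, -3.43, -3.12 and -3.00 in L3mbtl2-KD replicates 1 to 4 and -2.99, -3.11, -3.07 and -3.44 in control replicates 1 to 4. One array of each group was low (L3mbtl2-KD replicate 2 and control replicate 4) and the others were close together. The log2 fold change was 0.0031 (95% interval -0.30 to 0.31, limma adjusted p = 0.990), with the probe above background on all 8 arrays.

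**Figure D3:**
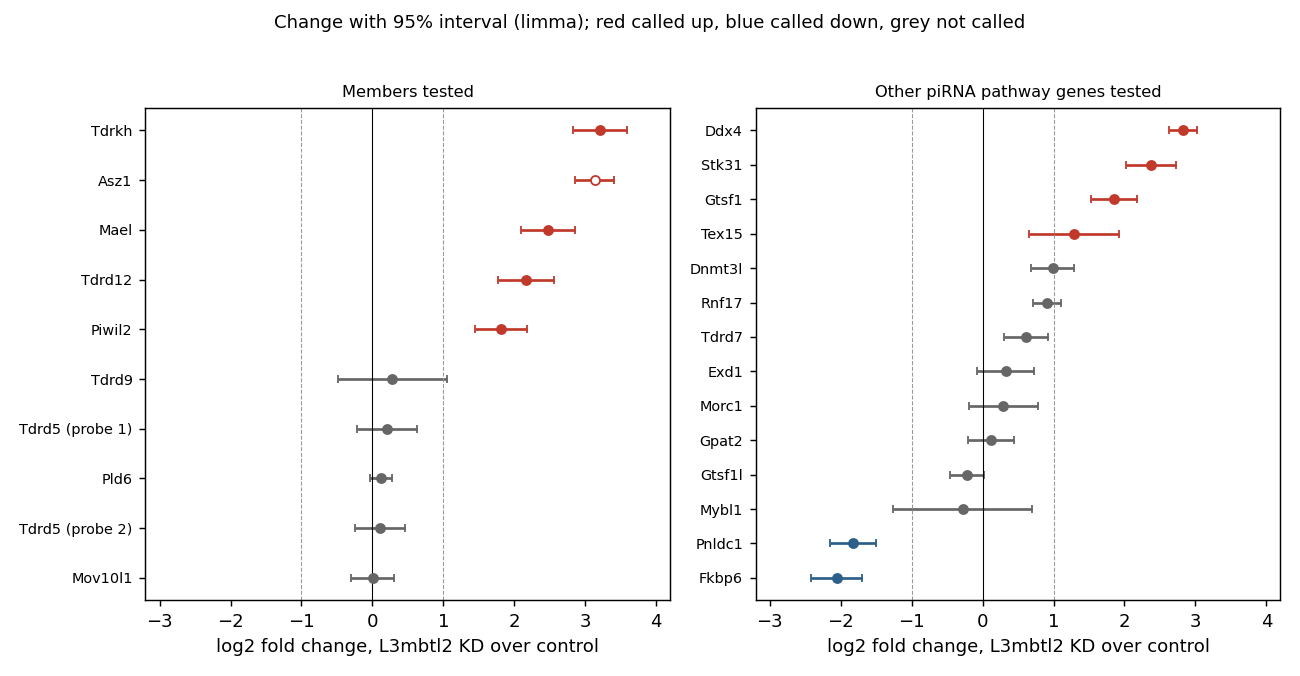
Log2 fold change (L3mbtl2-KD over control, horizontal axis) with its 95% interval from limma for the 10 member probes tested and for the other piRNA pathway genes tested, one row each (probe 1 of Tdrd5 is A_55_P1965160 and probe 2 is A_55_P2142575). The open symbol marks Asz1, which was not well above background in control ESCs, dashed lines mark a 2-fold change, and 2 of the other pathway genes lie beyond it on the falling side.

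Most of the called members shared a pattern among the arrays of each group. Control replicate 1 was the highest control array for Piwil2, Mael, Tdrkh and Tdrd12, and L3mbtl2-KD replicate 2 was the lowest L3mbtl2-KD array for the same 4 genes. Asz1, with control signals below background, did not follow it, and Mov10l1, which was not called, did. Among the 580 probes called up with a value on every array, control replicate 1 was the highest control for 33.6% and L3mbtl2-KD replicate 2 the lowest L3mbtl2-KD array for 27.6%, close to the shares among all probes tested (29.7% and 26.5%). These shares count each array alone, and the share of probes with both together was not computed. The arrays lay on 2 slides with 2 samples of each group. The 4 called members other than Asz1 changed by 1.61 to 2.98 (log2) on the first slide and by 2.01 to 3.44 on the second. The adjusted p of these 4 in limma was 0.0593 to 0.108 within the first slide alone and 0.00391 to 0.00722 within the second, each with 2 arrays per group.

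For each called member, the 2 genes with the most similar course over the 8 arrays were looked up by the root mean square difference of the centred log2 values. Tdrd12 was closest to Stk31 (0.123), which codes for another Tudor-domain protein of the germ line, followed by Stab2 (0.165). Mael was closest to Boll (0.131), a germ-cell RNA-binding protein, and Defb36 (0.134). The genes nearest to Piwil2 were Slc32a1 (0.0994) and Nlrp4c (0.123), and those nearest to Tdrkh were Hsf5 (0.208) and Taf9b (0.217). The likeness of Slc32a1 rests on 1 probe (log2 fold change 1.89). Its other probe, above background on all 8 arrays, changed by only 0.21 (limma adjusted p = 0.119). Asz1 was nearest to Ddx4 (0.194) and Dpep3 (0.251), a likeness that uses control signals below background. All 10 pairs were formed over the same 8 arrays, so the difference between the groups enters each of them.

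The next protein-coding gene on either side of each member in the RefSeq order was added after the members' values had been seen. All 20 of these genes had a probe, 11 were tested, and 0 were called up (2.49% of all genes) or down (3.21%) with limma. Without adjustment, 1 gene was more than 2-fold lower at a p under 0.05 in limma, and 1 in the one-way test. This was Cftr beside Asz1 (log2 fold change -1.04, from -1.90 in control ESCs to -2.94 in L3mbtl2-KD ESCs, limma adjusted p = 0.0609). With the replicate number as a block it was called down (limma adjusted p = 0.0293). Nudt19 beside Tdrd12 was higher by 0.42 (limma adjusted p = 0.0602), less than 2-fold. Both neighbours of Piwil2, Slc39a14 (0.14, limma adjusted p = 0.711) and Polr3d (0.0012, adjusted p = 0.994), and both neighbours of Mael, Gpa33 (0.18, adjusted p = 0.526) and Ildr2 (-0.30, adjusted p = 0.156), were measured. The neighbours of Tdrkh, Lingo4 and Oaz3, were too dim to be tested.

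The other genes of the pathway were mixed in direction. Of 23 such genes 19 had a named probe and 14 were tested. Among these 4 were up-regulated (2.49% of all genes), namely Ddx4, Stk31, Gtsf1 and Tex15, and 2 were down-regulated (3.21% of all genes), namely Fkbp6 and Pnldc1. Their median log2 fold change was 0.47, against -0.01 over all genes. Ddx4 codes for a nuage helicase, is the gene of the reporter used for the sort, and also stands among the germ cell markers below. Piwil1, Gtsf2, Henmt1, Tdrd6 and Nanos2 had a probe but were too dim to be tested.

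Stk31 was at 0.94, 0.55, 0.82 and 0.79 in L3mbtl2-KD replicates 1 to 4 and at -1.18, -1.63, -1.73 and -1.85 in control replicates 1 to 4 (log2 fold change 2.37, limma adjusted p = 0.000118). Gtsf1, a zinc-finger partner of PIWI proteins, rose from -0.59 ± 0.23 to 1.27 ± 0.18 (SD, n = 4 each), a log2 fold change of 1.85 (limma adjusted p = 0.000222). Tex15, which acts in piRNA-directed DNA methylation in the nucleus, rose less evenly. It was at -0.90, -2.03, -1.33 and -0.96 in L3mbtl2-KD replicates 1 to 4 and at -2.11, -3.05, -2.64 and -2.58 in control replicates 1 to 4. Its groups were apart by only 0.08, between L3mbtl2-KD replicate 2 and control replicate 1 (log2 fold change 1.29, limma adjusted p = 0.0159). A second probe of Tex15 was not well above background on any array.

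Pnldc1 codes for the nuclease that trims piRNA ends together with TDRKH, whose gene rose. Pnldc1 fell, with -0.89, -1.48, -1.45 and -1.37 in L3mbtl2-KD replicates 1 to 4 and 0.69, 0.45, 0.58 and 0.43 in control replicates 1 to 4. All L3mbtl2-KD arrays were lower, with replicate 1 the highest of them. Its log2 fold change was -1.83 (standard error 0.142, limma adjusted p = 0.000239). Fkbp6, a cochaperone of the piRNA pathway, was likewise lower on every L3mbtl2-KD array, with a mean of -2.87 ± 0.27 against -0.82 ± 0.21 (SD, n = 4 each). Dnmt3l, a cofactor of de novo DNA methylation, passed the adjusted threshold at 1.98-fold (log2 fold change 0.99, limma adjusted p = 0.00244) and so missed the call by its size, as did Rnf17 (0.91, limma adjusted p = 0.000522) and Tdrd7 (0.61, adjusted p = 0.0166). Gpat2 (0.12, limma adjusted p = 0.596) and Gtsf1l (-0.22, adjusted p = 0.185) were not called.

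Other Tudor-domain genes work outside the pathway, for example in reading histone marks or in splicing. Of 22 Tudor-domain genes outside the pathway that were tested, 1 was up-regulated (2.49% of all genes) and 0 were down-regulated (3.21% of all genes) with limma (0 more than 2-fold lower also without adjustment, and 0 in the one-way test of the legends). Below 2-fold, Tdrd3 and one probe of Arid4a were higher and Phf19 was lower at an adjusted p under 0.05. The median log2 fold change was 0.025. The called gene was Zgpat, through one of its 2 probes (1.01 and 0.98, limma adjusted p = 0.00732 and 0.00351), at the edge of the 2-fold threshold. The other 21 were not called, and the brightest among them were Uhrf1, Mtf2 and Lbr, with log2 fold changes of -0.08, 0.09 and -0.06 on their brightest probes (limma adjusted p = 0.813, 0.755 and 0.634).

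The machinery of the other small RNAs was measured as well. Over all genes 2.49% were called up and 3.21% down, so 0 calls in lists as short as the next 3 do not set them apart. Of the 14 microRNA and RNA interference genes, all 14 were tested and 0 were called in either direction with limma (0 more than 2-fold also without adjustment, and 0 in the one-way test; Ago3 was higher and Ago2 lower at an adjusted p under 0.05, by less than 2-fold), with a median log2 fold change of 0.0069. Tarbp2 (0.19), Drosha (0.04 on its brighter probe) and Mov10 (-0.28), the paralogue of Mov10l1, had limma adjusted p of 0.283, 0.882 and 0.160. The 4 arginine methylation genes, whose products modify PIWI proteins, had a median of 0.16 with 0 called with limma (0 at an unadjusted p under 0.05, and 0 with the one-way test). Prmt5, the methyltransferase itself, was at 0.09 (limma adjusted p = 0.725), Clns1a at 0.17 (adjusted p = 0.268) and Coprs at 0.14 (adjusted p = 0.268). Of the phospholipase D family outside Pld6, 4 of 5 genes were tested and 0 were called with limma (2 lower at an unadjusted p under 0.05, less than 2-fold, and 0 more than 2-fold with the one-way test). Pld3 (-0.32), Pld2 (-0.33) and Pld1 (0.15) had adjusted p of 0.109, 0.140 and 0.679. With the replicate number as a block, an adjusted p under 0.05 was reached, always below 2-fold, by 6 of the 14 microRNA and RNA interference genes (Ago1, Ago2, Ago3, Ago4, Tarbp2 and Mov10), 2 of the 4 arginine methylation genes (Wdr77 and Clns1a) and 2 of the 4 phospholipase D genes (Pld2 and Pld3, adjusted p = 0.0170 and 0.00459).

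**Figure D4:**
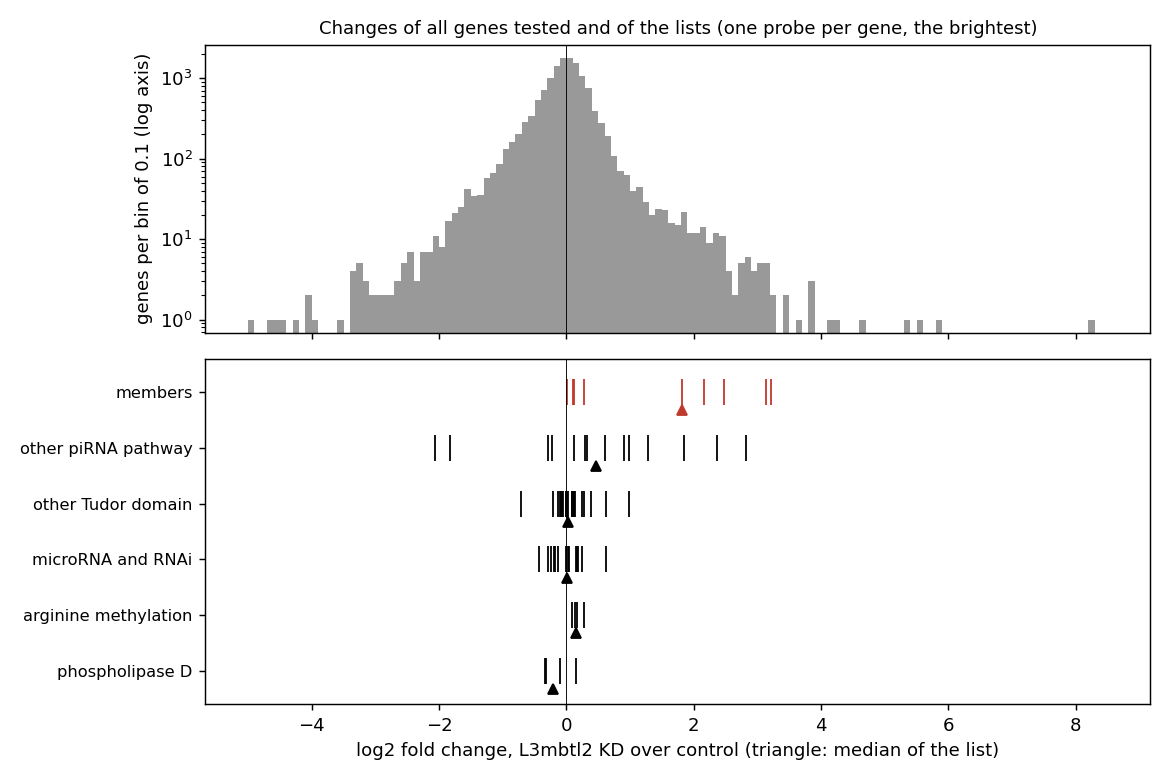
Upper panel: number of genes (log axis) by log2 fold change, L3mbtl2-KD over control, for all genes tested, one probe per gene. Lower panel: the same quantity for each tested gene of the members (red) and of the 5 lists (black ticks), with a triangle at the median, which is 1.81 for the members (Asz1 included at its fitted value) and between -0.21 and 0.47 for the lists.

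Against all genes tested, the middle of the distribution of log2 fold changes ran from -0.24 (25th percentile) to 0.19 (75th percentile), and the 95th and 99th percentiles were 0.64 and 1.81. Tdrd5 (on its brighter probe), Mov10l1 and Pld6 lay within the middle range and Tdrd9 above it but below the 95th percentile. The 4 called members other than Asz1 were at the 99th percentile or beyond.

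Markers of the cell types that the samples could hold were read beside the members. The summed level of the members' brightest probes, in units of the 75th percentile, was 19.5, 18.0, 19.5 and 22.9 in L3mbtl2-KD replicates 1 to 4 and 5.97, 4.39, 4.07 and 4.66 in control replicates 1 to 4, most of it from the probe of Mael. The 8 germ cell markers summed to 119, 106, 91.2 and 111 in L3mbtl2-KD replicates 1 to 4 and to 56.6, 47.5, 39.1 and 43.4 in control replicates 1 to 4, with the largest part from the probe of Stra8. Of the 8 markers 3 were up-regulated (Ddx4, Dazl and Stra8), where 2.49% of all genes tested were. In limma 0 were down-regulated, where 3.21% of all genes were (1 without adjustment, and 1 in the one-way test). The lower marker was Prdm1 (log2 fold change -1.27, limma adjusted p = 0.0716). The median log2 fold change of the 8 was 0.21. Sycp3, Prdm1, Tfap2c, Nanos3 and Kit were not called.

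The 8 ESC markers summed to 144, 143, 151 and 148 in L3mbtl2-KD replicates 1 to 4 and to 170, 157, 171 and 150 in control replicates 1 to 4, with the largest part, in the mean over the 8 arrays, from the probe of Utf1. All 8 were well above background on every array. With limma 0 were called, where 2.49% of all genes were called up and 3.21% down. Nanog was more than 2-fold lower without adjustment, and 0 of the 8 were so in the one-way test. Klf4 was lower by less than 2-fold at an adjusted p under 0.05. The 10 feeder fibroblast markers summed to 23.6, 32.2, 27.5 and 22.3 in L3mbtl2-KD replicates 1 to 4 and to 47.6, 54.3, 51.0 and 46.2 in control replicates 1 to 4, most of it from the probe of Fn1 (log2 fold change -0.88, not called). Of the 8 tested 5 were down-regulated (3.21% of all genes), namely Col1a1, Col1a2, Col3a1, Dcn and Acta2, and 1 was up-regulated (2.49% of all genes), namely Loxl1. The median log2 fold change of the 8 was -2.47, which counts Dcn and Col3a1 at their fitted values (-4.26 and -4.07). The other tested markers were at -2.81 (Col1a2), -2.72 (Acta2), -2.22 (Col1a1), -0.88 (Fn1), -0.86 (Thy1) and 1.01 (Loxl1). Dcn and Col3a1 were not well above background on any L3mbtl2-KD array. They passed the filter only through the control arrays, so that they had to differ once tested, and their falls have only lower limits (at least 12.3-fold and 7.92-fold). Lum and Postn were well above background on none of the 8 arrays.

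Of the 7 two-cell-like markers with a probe, 6 were up-regulated (2.49% of all genes). The 7 markers summed to 92.9, 90.9, 50.5 and 51.2 in L3mbtl2-KD replicates 1 to 4 and to 25.4, 30.0, 16.8 and 18.0 in control replicates 1 to 4. The largest part, again in that mean, came from the probe of Zscan4f. These sums were higher on the first slide (replicates 1 and 2) than on the second in both groups, a split that the sums of the members did not show. The part of the germ cell, feeder and two-cell-like markers in the changes of the members was not tested.

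**Figure D5:**
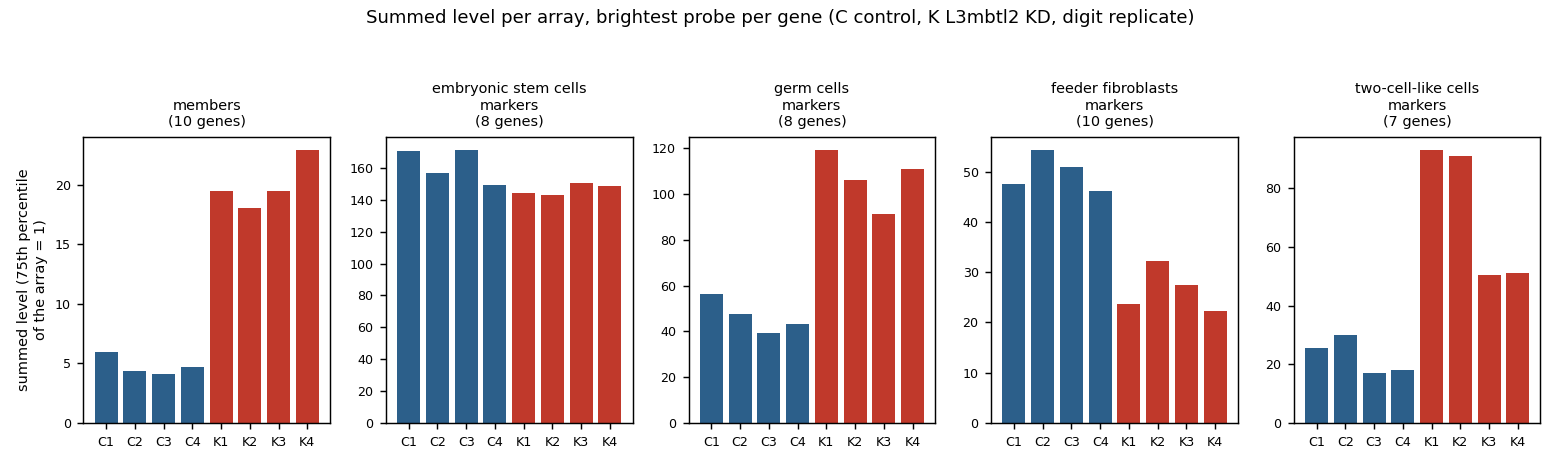
Summed level (vertical axis, in units of the 75th percentile of the array, from 0) of the members and of 4 marker lists in each control array (C, blue) and L3mbtl2-KD array (K, red), with the replicate number after the letter. Sums of the members, germ cell and two-cell-like markers are higher, and those of the feeder fibroblast markers lower, on all 4 L3mbtl2-KD arrays.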

How the data were processed

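RNA of 4 L3mbtl2-KD and 4 control samples, called biological replicates in the design text, was measured on one-colour arrays. The authors deposited each spot's intensity with background subtracted by Feature Extraction and with no scaling among arrays, and a separate log2 table that their methods describe as shifted by the 75 percentile. Set against each probe's median over the arrays, this table followed the scanner values (lowest correlation of an array 0.999), and its column medians ran from -0.06 to 0.08, so its scale is log2, its centring the probe median and its direction that of the intensities. Here intensities were put on the log2 scale and the array's own 75th percentile was subtracted. Control and outlier spots were left out, and spots of a probe were averaged. Probes were named through RefSeq accessions (26055 of 39429 matched). The 23525 probes well above background (in at least 50% of their spots) on all arrays of either group were fitted with limma 3.58.1 (R 4.3.3), and p-values were adjusted over all of them by Benjamini-Hochberg. The limma calls were also tried on simulated data with independent noise on each array. Those data held no pairs or slides, so they do not bear on such effects.

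Members and lists were chosen with earlier results of these data known. Named genes were all members, L3mbtl2, 4 germ cell markers, the called genes of each list with up to 3 others of highest signal, and the 2 genes closest to each called member. Other genes were named after their values were seen. Same-numbered samples deviated together from their group means (correlations 0.38 to 0.58, against -0.44 to 0.25 for different numbers). The numbers were therefore taken to pair the samples in the replicate block, a pairing inferred from the values. The main fit did not use it. Same-numbered samples also lay on the same slide at adjacent positions, so a pairing cannot be told from these. Normexp used median spot intensities. The other settings tried were quantile normalization, the deposited log2 table, other filters on dim probes, slide or replicate blocks, an intensity trend, the one-way test of the legends, a 1.5-fold threshold, one probe per gene, each slide alone and leaving out each sample.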

Additional observations from a re-analysis of the deposited data

Results flagged for a closer look

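Among the named genes, 1 sample lay far from the other 3 of its group in 7 of 106 groups of 4 samples by Dixon's ratio of gap to range, where chance gives about 1 in 20 groups (5.30). No member was among them. In L3mbtl2-KD ESCs these were Fkbp6 (0.837, replicate 1), Gpat2 (0.868, replicate 1), Coprs (0.854, replicate 2) and Defb36 (0.861, replicate 4). In control ESCs they were Drosha (0.896, replicate 2), the dimmer probe of Uhrf1 (0.905, replicate 1) and a second probe of Nlrp4c (0.862, replicate 1).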

How the results depend on the processing

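The 5 members called up were called under every alternative run over both slides except 2, in which 4 were called. These were normexp background correction and the filter for probes above background on all arrays, both without Asz1. Over all genes, normexp called 194 up and 159 down in place of 340 and 438, the filter for all arrays 250 and 290, the 1.5-fold threshold 700 and 1014, the first slide alone 0 and 0, and the second slide alone 342 and 406. The median of the members tested was 0.83 with normexp and 1.05 without Asz1 (added after the values were seen) in place of 1.81, and the filter for all arrays gives none over the same genes. Leaving out any 1 sample gave 5 each time. No member was called down under any alternative. With the replicate number as a block, which treats the samples as pairs, 5 members were again called up and 0 down, as were 4 and 2 of the other pathway genes and 1 and 0 of the other Tudor-domain genes, and L3mbtl2 was at -1.40 (limma adjusted p = 0.00168). Among the members, lists, markers and neighbours, the block changed 1 call, with the neighbouring gene Cftr called down. Over all genes it called 358 up and 469 down, in place of 340 and 438. Whatever the size of the change, an adjusted p under 0.05 was reached with the block by 10 of the other pathway genes (9 without it), 5 of the other Tudor-domain genes (4) and 3 of the neighbouring genes (0). Among the markers, 2 ESC markers (1 without it) and 4 germ cell markers (3) reached it. The block added Tdgf1 (-0.28, limma adjusted p = 0.00802) and Nanos3 (0.38, adjusted p = 0.00544), both below 2-fold.

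Within the first slide alone, L3mbtl2 was at -1.40 (limma adjusted p = 0.0982), and the called members likewise missed the threshold. Within the second, also with 2 arrays per group, L3mbtl2 was at -1.40 (limma adjusted p = 0.00874) and all 5 members were called up. Leaving out samples moved L3mbtl2 between -1.48 and -1.27. A 1.5-fold threshold, which must call more, gave 7 other pathway genes up, 2 Tudor-domain genes up and 1 down, and 1 microRNA gene up. Normexp, or one probe per gene, called 0 Tudor-domain genes up. With samples left out this count was 0 to 1, and it was 0 without control replicate 1 or 2, or without L3mbtl2-KD replicate 3 or 4, since Zgpat lies at the threshold. Without a filter on dim probes 1 phospholipase D gene was called down, with more genes tested. The same settings were run for the neighbours and markers after their values were seen. Cftr was also called down with an intensity trend and in the unadjusted one-way test, and with samples left out the count was 0 to 1. ESC markers down were 1 at 1.5-fold and 0 to 1 with samples left out, and germ cell markers down 1 in the unadjusted one-way test. Feeder markers up were 0 with normexp and 0 to 1 with samples left out, and down 3 in place of 5 with the filter for all arrays. Across the settings, feeder markers down ran from 3 to 7 and two-cell-like markers up from 4 to 6.

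Members that were not called changed sign in some settings. Mov10l1 was at -0.19 within the first slide and from -0.0921 to 0.0983 with samples left out (-0.0921 without control replicate 4, and -0.03, -0.0066 and -0.05 without L3mbtl2-KD replicates 1, 3 and 4). Tdrd9 was at -0.0223 within the first slide and from 0.0011 (without control replicate 3) to 0.47 with samples left out. The first probe of Tdrd5 ranged from 0.09 to 0.37 with samples left out, and the second probe of Tdrd5 ranged from -0.0053 (without control replicate 4) to 0.2389 with samples left out. Quantile normalization gave 0.49 for Tdrd9, 0.34 and 0.20 for Tdrd5 and 0.13 for Mov10l1, with no call. The cause was not tested.

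Signal over background limits Asz1, Tdrd9 and Tdrd1 most, and the bound of Asz1 depends on how the scanner subtracted background. With 4 samples a group, the changes of Tdrd5, Tdrd9 and Mov10l1 cannot be told from the spread of their own probes between samples. The 2 groups never shared a position on the slides, so position and group cannot be told apart.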
